A study of Saccharomyces cerevisiae with 44 samples.

Results

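The histone genes of budding yeast were followed through growth, arrest and quiescence in 10 mRNAs. They comprise 8 core copies, HTA1 and HTA2 for H2A, HTB1 and HTB2 for H2B, HHF1 and HHF2 for H4, HHT1 and HHT2 for H3, together with HTZ1, which encodes the variant H2A.Z, and HHO1, which encodes the linker histone H1. The genes were taken by name from the sense-strand mRNA count table, in which they are 10 of 6600 Saccharomyces cerevisiae lines. All 10 had reads in all 44 libraries and passed the filter on low counts in every fit. They held between 0.0594% and 0.449% of the mRNA reads of a library, which were 2346 to 35342 reads.

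Core histones package DNA, and their genes are transcribed mainly while DNA is replicated. Each core gene lies back to back with a partner and shares one promoter region with it. The HIR complex represses these pairs outside S phase, with HTA2-HTB2 known as the exception, while Spt10, Spt21 and the SBF and MBF factors activate them. HTZ1 is expressed outside S phase too, and its product is placed in chromatin by the SWR1 complex. Yeast histone mRNAs are polyadenylated, and the nuclear exosome is known to limit their amount.

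The strains were of the W303 background, and each of the 22 groups held 2 replicates. Auxin-treated (IAA, 1 mg/ml) quiescent cells of day 7 carried either Nab3-AID, in which auxin is meant to remove the termination factor Nab3, or only the OsTIR-AID control, and both were read as nascent and as steady-state RNA. An rrp6 deletion, which lacks the nuclear exosome nuclease Rrp6, was set against wild type in quiescent cells of day 8 (nascent and steady-state), in G1, and at 2 h before and 2, 24 and 48 h after the diauxic shift, when glucose runs out (steady-state). Wild-type quiescent cells of day 7 were set against wild-type G1 cells, both as nascent and steady-state RNA, in libraries made with the Ovation SoLo kit; all other libraries were made with the Universal Plus kit. Quiescent cells grew in rich medium with 2% glucose and were isolated by density gradient, and G1 cells were arrested by 5 µg/ml alpha factor, given again at 90 min where needed. Nascent RNA is RNA that took up 4-thiouracil (4tU-seq) and steady-state RNA is total RNA. In each group the labels give the 2 replicates different strain numbers, so replicate and strain number cannot be told apart. The numbers are 5781 and 5782 for wild type and 7079 and 7078 for the rrp6 deletion. Nab3-AID has 7716 and 7718, and OsTIR-AID has 6125 and 6126. The design calls the replicates biological, but the labels do not say that they were separate cultures, so p-values measure the spread between these samples.

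Levels are S. cerevisiae mRNA counts scaled to library size (CPM), scaled by the TMM method within each of 4 sets of libraries. They are shares of mRNA, and in bulk samples fewer cells with an RNA and less RNA per cell cannot be told apart. A gene was called changed at an adjusted p under 0.05 in edgeR's quasi-likelihood test over all mRNAs. Libraries also held reads of Kluyveromyces lactis, a second yeast, and scaling to those reads in place of TMM shifted the all-mRNA median by -4.48 to 2.20 on the log2 scale over 27 comparisons. Called members whose sign turned under that scaling are given beside each result, since the labels do not state how much K. lactis material was added or at which step. mRNA reads per library ranged from 1337088 to 11939647. RRP6 itself lay between 1.83 and 4.35 log2 CPM in the 14 rrp6 libraries and between 6.31 and 8.09 in the other 30. Alpha-factor response markers summed to 15135 to 33392 CPM over the G1 groups and to at most 999 CPM in every other library. Reads that align to several places were not counted, so values of the near-identical copies of one histone are uncertain.

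On the R64 (sacCer3) assembly HTA1 (YDR225W) lies at chrIV:915530-915928 on the plus strand and HTB1 (YDR224C) at chrIV:914317-914712 on the minus strand, with 817 bases between their coding starts. HTA2 (YBL003C) lies at chrII:235394-235792 on the minus strand and HTB2 (YBL002W) at chrII:236492-236887 on the plus strand, with 699 bases between them. HHF1 (YBR009C, chrII:255373-255684, minus) and HHT1 (YBR010W, chrII:256331-256741, plus) are 646 bases apart. HHT2 (YNL031C, chrXIV:575640-576050, minus) and HHF2 (YNL030W, chrXIV:576727-577038, plus) are 676 bases apart. HTZ1 (YOL012C) occupies chrXV:303579-303983 and HHO1 (YPL127C) chrXVI:308828-309604, both on the minus strand and without a histone partner. These positions are the annotated coding lengths, with no UTRs.

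The genes differed widely in the span of their levels over the groups. Between the lowest and the highest group mean HHO1 spanned 102-fold, HTA2 42.8-fold, HHF2 24.8-fold and HHF1 24.0-fold. HTZ1 spanned 4.04-fold and HTB1 6.29-fold. For each of these genes the lowest group was nascent and the highest steady-state RNA, so the spans mix kinds of RNA. Those of HHO1 and HHF1 also mix the kits. Among steady-state groups of the Universal Plus kit, HHO1 ran from 24.6 CPM in wild-type G1 to 720 CPM in OsTIR-AID quiescence. Per kb of coding length HHT2 was the highest of the 10 genes in 12 of 22 groups. HTA2 was the lowest in 9 groups, HTZ1 in 6, HHO1 in 4 and HTB2 in 3. Levels set across the 4 sets of libraries were scaled separately.

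The order of the genes was not the same in dividing and quiescent cells. In wild type 2 h before the shift all 8 core copies stood above both HHO1 and HTZ1 in CPM per kb, running from HHF1 at 2484 ± 22.7 to HTA2 at 826 ± 11.3, with HHO1 at 187 ± 8.96 and HTZ1 at 126 ± 1.67 (SD, n = 2 each). No neighbours in that order overlapped. In wild-type quiescent cells of day 8, read as steady-state RNA, HHT1 at 1372 ± 383, HHF1 at 1317 ± 384, HTB1 at 1188 ± 209 and HTA1 at 1180 ± 290 CPM per kb overlapped one another. HHO1 at 798 ± 109 CPM per kb then stood level with HHT2 at 802 ± 214. HTA2, at 74.1 ± 2.48 CPM per kb, was the lowest of the 10, below HTZ1 at 107 ± 36.3.

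The copies of one histone were used unequally, and the balance moved with the state of the cells. HTA2 gave 40.5% and 40.7% of the HTA1 and HTA2 reads in wild type 2 h before the shift, then 5.51% and 5.16% at 2 h, 15.2% and 15.9% at 24 h and 4.97% and 4.32% at 48 h after it. HTB2 followed a like course among the H2B reads, at 38.2% and 36.3%, then 5.83% and 4.99%, 18% and 14.2%, and 7.35% and 6.19%. For H3, HHT1 gave 72.0% and 66.2% of the reads of both copies in wild-type quiescent steady-state RNA of day 7, against 33.5% and 32.2% in G1. Across the 18 groups of the Universal Plus kit, partners with one promoter region had Pearson correlations of log2 CPM of 0.90 (HTA1 with HTB1), 0.93 (HHF2 with HHT2), 0.82 (HTA2 with HTB2) and 0.76 (HHF1 with HHT1). Copies of one histone at different places had 0.23 (HTA1 with HTA2), 0.51 (HTB1 with HTB2), 0.62 (HHF1 with HHF2) and 0.73 (HHT1 with HHT2). Some genes that are neither partners nor copies had values as high as partners, such as HTA1 with HHF1 (0.92). These correlations describe 18 group means that share strains and library sets.

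The diauxic shift in wild type addressed how histone mRNAs move as cells leave growth. At 2 h after the shift, set against 2 h before it, 9 of 10 histone mRNAs were lower, against 36.9% of all 6146 mRNAs tested, and no sign turned under K. lactis scaling, where HHO1 was lower too (-0.95). HTA2 stood at 17.1 and 17.7 CPM after, against 326 and 333 CPM before. HTB2, its partner, stood at 17.8 and 17.1 CPM after, against 373 and 369 CPM before. The libraries of each time lay close together and far from the other time. HTA2 fell by 4.24 ± 0.14 (SE) and HTB2 by 4.41 ± 0.10 on the log2 scale (adjusted p = 1.3e-18 and 6.1e-22). The other 6 core copies fell by 0.64 (HTA1) to 1.74 (HHF2). HHO1, at 145 and 145 CPM after and 141 and 150 CPM before, had a difference of -0.00 ± 0.08. HTZ1 fell by 0.28 ± 0.11 (adjusted p = 0.02735), a call lost without either library of 2 h before or without replicate 1 of 2 h after (adjusted p = 0.0615 to 0.282).

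**Figure D1:**
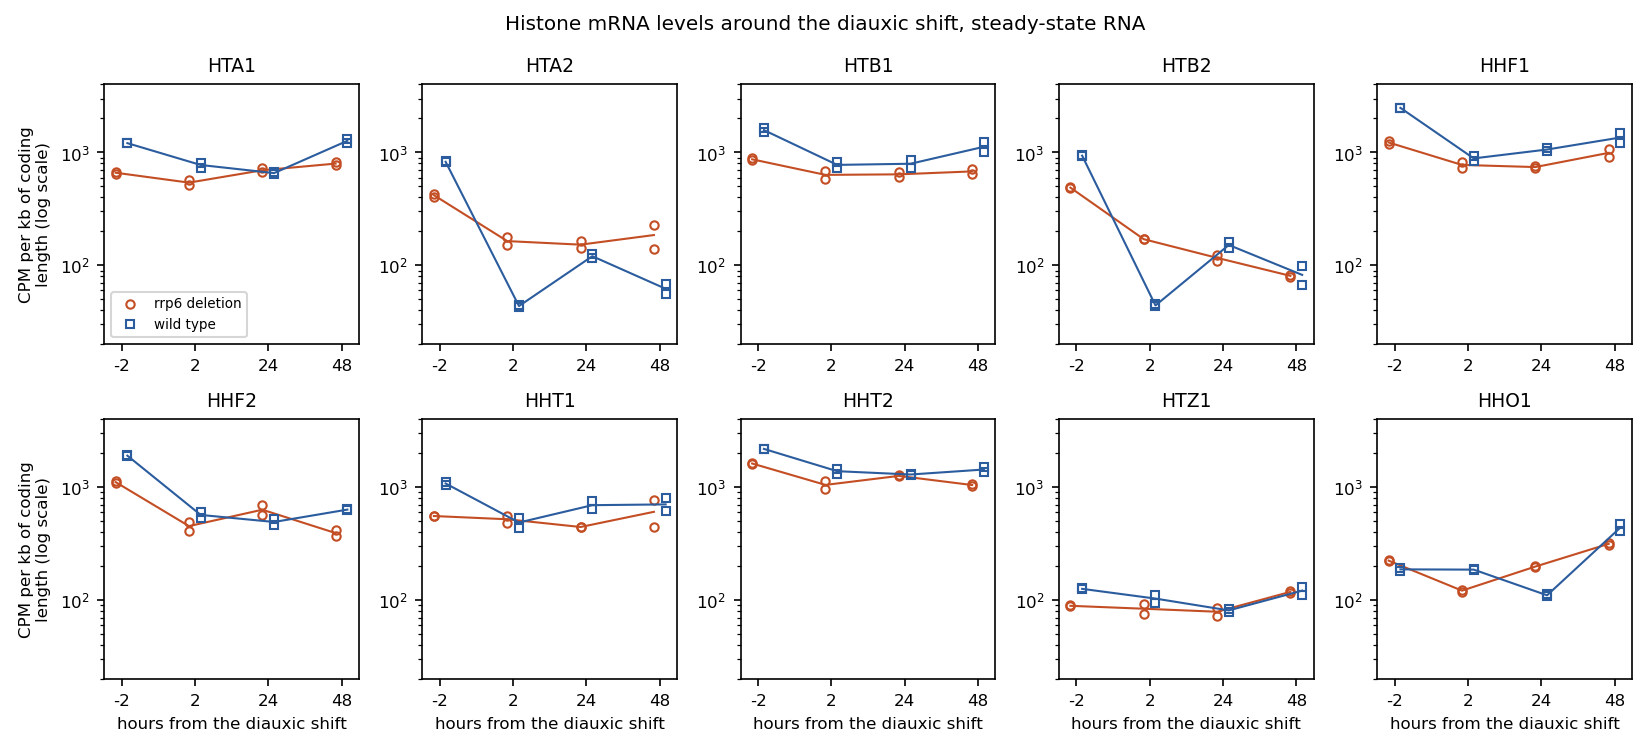
Levels of the 10 histone mRNAs in CPM per kb of coding length (log axis) at 2 h before and 2, 24 and 48 h after the diauxic shift, steady-state RNA, with 2 libraries per point set of the rrp6 deletion (circles) and wild type (squares) and lines through their means. Wild-type HTA2 and HTB2 drop at 2 h by 4.24 and 4.41 on the log2 scale, and HHO1 is highest at 48 h in both strains.

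From 2 h onwards the HTA2-HTB2 pair and HHO1 moved in opposite directions. At 24 h, set against 2 h after the shift, 4 of 10 mRNAs were higher and 3 lower, against 33.6% and 27.0% of all mRNAs. HTA2, at 46.0 and 50.4 CPM, and HTB2, at 63.2 and 56.7 CPM, were higher at 24 h by 1.47 ± 0.18 and 1.77 ± 0.13 on the log2 scale. HHO1 was lower, at 83.6 and 88.1 CPM (-0.76 ± 0.09). HHF1 (0.26), HHT1 (0.51), HTA1 (-0.24) and HTZ1 (-0.35) were called too, but each lost the call without at least 1 library: HHF1 read 0.20 and 0.18 and HHT1 0.38 and 0.37 without replicate 2 of 24 h and without replicate 1 of 2 h. HTA1 read -0.22 without replicate 1 of 24 h and -0.17 without replicate 2 of 2 h, and HTZ1 read -0.40, -0.30 and -0.23 without either library of 24 h or replicate 2 of 2 h. K. lactis scaling made 8 mRNAs lower at 24 h, HTB1, HHF1 and HHT1 turning to -1.39, -1.16 and -0.91. Of all mRNAs 165 were then higher and 5253 lower. HTB2 (0.35) was then the 1 called higher, and HTA2 (0.05) was not called.

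At 48 h, set against 24 h, 6 of 10 mRNAs were higher and 2 lower, against 32.9% and 38.8% of all mRNAs. HHO1 stood at 365 and 318 CPM, a rise of 2.00 ± 0.09 on the log2 scale (adjusted p = 1.5e-15), and HTA1 at 524 and 489 CPM, a rise of 0.95 ± 0.08 against 257 and 266 CPM at 24 h. HTB1 rose by 0.51 ± 0.11. HTA2, at 27.4 and 22.1 CPM, and HTB2, at 38.8 and 26.3 CPM, fell by 0.91 ± 0.20 and 0.79 ± 0.14. HHF1 (0.36), HHF2 (0.37) and HTZ1 (0.62) lost their calls without wild-type 48 h replicate 1, at 0.19, 0.34 and 0.44, and HHF2 also without 24 h replicate 2, at 0.28. K. lactis scaling made 9 mRNAs lower at 48 h and HHO1 alone was higher, against 5001 lower and 177 higher among all mRNAs. HTA1, HTB1, HHF1, HHF2 and HTZ1 then read -0.42, -0.88, -1.02, -1.01 and -0.79. Markers of quiescent or stationary cells summed to 62004 to 68199 CPM at 48 h, against 39579 to 42951 CPM at 24 h, and their part in the result was not tested.

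Histone mRNAs were also low in alpha-factor arrest. In wild-type G1, set against wild type 2 h before the shift, all 10 mRNAs were lower, against 26.8% of all mRNAs, by 1.31 (HTZ1) to 4.66 (HTA2) on the log2 scale, and no sign turned under K. lactis scaling. HHF1 stood at 43.8 and 49.2 CPM in G1, against 770 and 780 CPM before the shift. HHO1 stood at 27.0 and 22.2 CPM, against 141 and 150 CPM. The column headers put the G1 libraries of this comparison in batch 2 and those before the shift in batch 1. They do not say what a batch is, and batch and group cannot be told apart here.

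Quiescent wild-type cells of day 7 were set against G1 cells to ask what differs between these non-dividing states. In steady-state RNA 7 of 10 histone mRNAs were higher in quiescence and none was lower, against 36.7% and 38.0% of 5970 mRNAs. HHO1 stood at 476 and 324 CPM in quiescence, against 19.6 and 16.8 CPM in G1 (4.46 ± 0.25, adjusted p = 1.2e-06). HHF1 stood at 459 and 358 CPM, against 31.7 and 35.0 CPM (3.62 ± 0.19, adjusted p = 9.8e-07). Both pairs of libraries lay more than the replicate spread apart.

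The promoter pairs differed from one another. HHT1 (2.59 ± 0.32) and HHF1 rose together, as did HTB1 (2.27 ± 0.24) and HTA1 (2.05 ± 0.23). HHT1 was at 1020 and 486 CPM in quiescence, the widest spread between replicates among these genes, against 127 and 124 CPM in G1. HTA2, at 21.8 and 25.9 CPM against 19.2 and 22 CPM, and HTB2, at 37.6 and 26.8 CPM against 24.4 and 26.7 CPM, were not called (0.21 ± 0.26 and 0.35 ± 0.27). HHT2, at 397 and 247 CPM against 252 and 260 CPM, was not called either (0.33 ± 0.28), while its partner HHF2 rose by 0.89 ± 0.25, a call lost without G1 replicate 1 (0.82, adjusted p = 0.0643). HTZ1, at 77.3 and 63.0 CPM against 22.1 and 22.2 CPM, rose by 1.67 ± 0.20. Under K. lactis scaling the 7 called signs stayed positive, but HHF2 (0.51) and HTZ1 (1.36, adjusted p = 0.126) lost their calls, and uncalled HTA2 read -0.14.

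In nascent RNA the same comparison called 6 of 10 histone mRNAs higher and none lower, against 29.0% and 33.1% of all mRNAs. HHO1 stood at 90.7 and 77.8 CPM in quiescence, against 7.76 and 6.38 CPM in G1 (3.57 ± 0.25, adjusted p = 9.2e-06). HHF1 was higher by 1.85 ± 0.18, HTZ1 by 1.32 ± 0.19 and HTB2 by 1.40 ± 0.26, HTB2 standing at 59.6 and 39.2 CPM against 20.3 and 17.2 CPM. HTA1 and HTB1 (0.63 each) lost their calls when single libraries were left out, at 0.35 to 0.64 without either G1 library or quiescent replicate 2 for HTA1 and at 0.42 to 0.68 without G1 replicate 2 or either quiescent library for HTB1. These are shares of nascent mRNA. K. lactis scaling shifted the all-mRNA median by -4.48, with 59 of all mRNAs higher and 5541 lower. Under it 9 of the 10 mRNAs were lower in quiescence, from HHT2 at -4.40 to HHF1 at -2.57, and HHO1 was not called (-0.93).

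**Figure D2:**
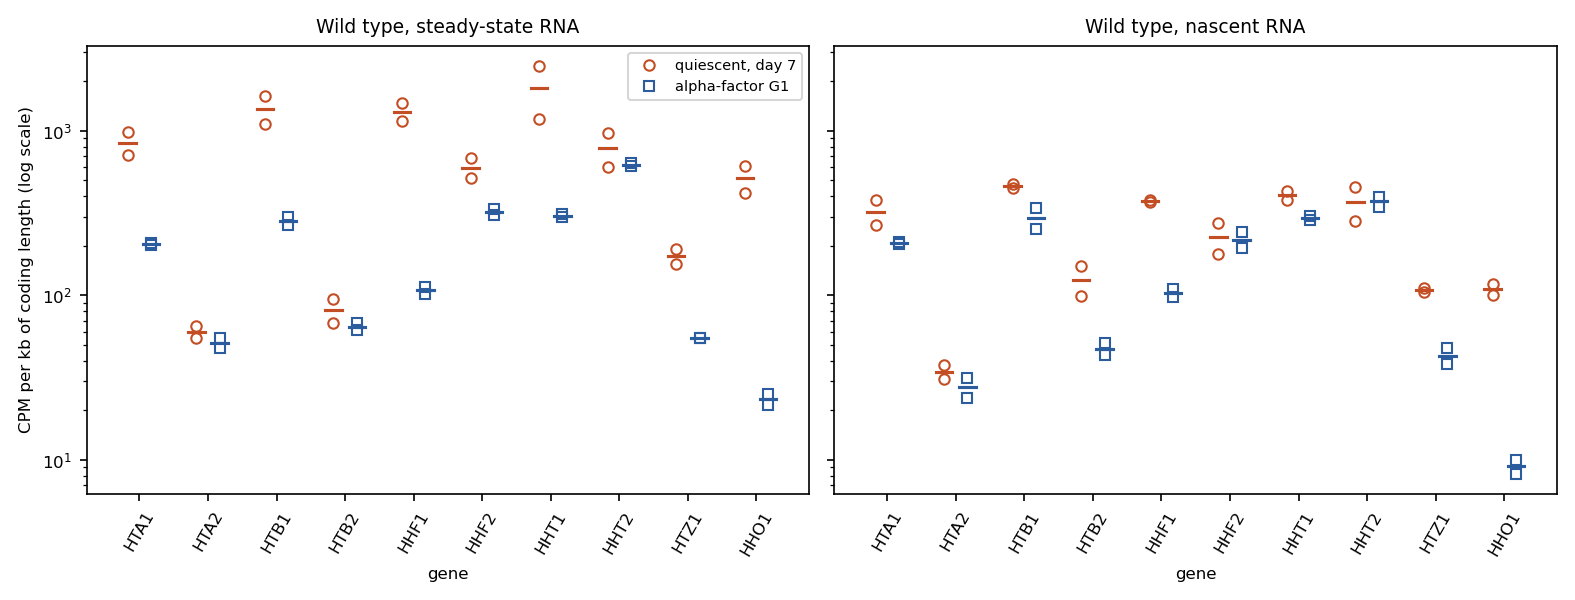
Levels of the 10 histone mRNAs in CPM per kb of coding length (log axis) in wild-type quiescent cells of day 7 (circles) and alpha-factor G1 cells (squares), steady-state RNA on the left and nascent RNA on the right, with points for the 2 libraries and bars for their mean. HHO1 is above its G1 level in both kinds of RNA, by 4.46 and 3.57 on the log2 scale, and the libraries of HTA2 and HHT2 overlap between the states.

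The gain in quiescence was tested for a difference between nascent and steady-state RNA. It was smaller in nascent RNA for HHT1 (-2.13 ± 0.43), HHF1 (-1.77 ± 0.25), HTB1 (-1.63 ± 0.33) and HTA1 (-1.42 ± 0.31), and these 4 of 10 were called, against 37.8% of all mRNAs. HTB2 had the opposite sign (1.05 ± 0.37, adjusted p = 0.05413) and HHO1 read -0.89 ± 0.33 (adjusted p = 0.06233). With replicates blocked by strain HTB2 (1.06, adjusted p = 0.0305) and HHO1 (-0.86, adjusted p = 0.0278) passed the test. All 10 were lower under K. lactis scaling, HTA2 and HTB2 then reading -4.02 and -3.23. So were 5402 of all mRNAs, while 0 were higher.

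Within each state, nascent RNA was set directly against steady-state RNA. In quiescent wild type of day 7, 9 of 10 histone mRNAs were a smaller share of nascent than of steady-state mRNA and none a larger one, against 23.7% and 29.1% of all mRNAs, from HTZ1 (-0.69 ± 0.19) to HHO1 (-2.25 ± 0.22). HTB2 was the exception, at 59.6 and 39.2 CPM nascent against 37.6 and 26.8 CPM steady-state, with groups that did not overlap (0.60 ± 0.26, adjusted p = 0.08343). HTA2, HHT2 and HTZ1 each lost the call there without some single libraries. The auxin-treated control of day 7 gave 9 lower of 10 and none higher, against 29.2% and 31.0%, with HTB2 again not called (-0.37 ± 0.25), and 6 or 7 when any 1 library was left out, HTA2, HTZ1 and HHF1 being those lost. Wild type of day 8 gave 7 lower of 10 and none higher, against 26.2% and 29.4%, with HTB2 at 0.04 ± 0.28 and HHO1 at -2.61 ± 0.16. HHF2 in that set, at -0.58 ± 0.26, passed with replicate number as a block (adjusted p = 0.0174). Without steady-state replicate 1 fewer of the 10 were called.

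In G1 nascent and steady-state shares were closer. Of the 10 mRNAs 2 were lower in nascent RNA and none higher, against 14.9% and 12.6% of all mRNAs, HHO1 by 1.36 ± 0.25 and HTA2 by 0.90 ± 0.25. Leaving out any single G1 library ended at least 1 of these calls, and none of the 10 was called without nascent replicate 2 or without steady-state replicate 1. K. lactis scaling turned signs in G1, HHO1 and HTA2 reading 0.66 and 1.19. It made 7 histone mRNAs higher in nascent RNA, against 4529 higher and 4 lower among all mRNAs. In wild-type quiescence of day 7 it turned HTB2 to -1.61, and it turned no called sign in the other quiescent sets.

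Deletion of RRP6 was used to ask what the nuclear exosome contributes at each stage. In steady-state RNA HTA2 was called higher in the rrp6 deletion at 5 of 6 stages. In quiescent cells of day 8 it was at 109 and 107 CPM in rrp6, against 30.3 and 28.9 CPM in wild type, a rise of 1.87 ± 0.18 on the log2 scale (adjusted p = 0.002454). It was the 1 histone mRNA of 10 called in that comparison, where 4.76% of 6170 mRNAs were higher and 7.18% lower, and each of the 4 fits that left out a library kept 1 call among the 10. HHO1, at 482 and 434 CPM in rrp6 against 680 and 561 CPM in wild type, read -0.44 ± 0.15 (adjusted p = 0.09924). HTB2 was at 74.2 and 83.6 CPM, against 44.5 and 66.2 CPM (0.51 ± 0.29, adjusted p = 0.2826). Under K. lactis scaling 9 mRNAs were higher in rrp6 and HTA1 turned to 1.12. Of all mRNAs 4222 were then higher and 9 lower.

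In nascent RNA of that stage edgeR called none of the 10 in rrp6, against 1.22% of all mRNAs. HTA2 stood at 24.2 and 22.7 CPM in rrp6, against 19.0 and 16.4 CPM in wild type (0.40 ± 0.16, adjusted p = 0.3103). The difference between the nascent and the steady-state change of HTA2 was -1.47 ± 0.24 (adjusted p = 0.1003). None of the 10 was called in that test, against 0.0648% of all mRNAs. DESeq2 called none of the 10 in either test. When scaled to K. lactis, 6 histone mRNAs had a smaller change in nascent RNA, as did 1674 of all mRNAs, while 2 had a larger one.

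In G1 HTA2 was at 35.0 and 37.0 CPM in rrp6, against 12.1 and 13.9 CPM in wild type (1.47 ± 0.17, adjusted p = 2.4e-07). In all 4 of 10 were higher and 1 lower, against 25.5% and 23.1% of all mRNAs. HHO1 (0.54 ± 0.11) and HHF1 (0.45 ± 0.11) were higher and HHT2 was lower (-0.40 ± 0.09). HTB2, at 0.39 ± 0.13, lost its call without rrp6 replicate 2 (0.35) or wild-type replicate 1 (0.32). No sign turned under K. lactis scaling, where HHT2 was not called.

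Before the shift the direction was the other one. At 2 h before it 9 of 10 were lower in rrp6 and 1 higher, against 31.7% and 31.2% of all mRNAs. HTA2 stood at 172 and 162 CPM in rrp6, against 326 and 333 CPM in wild type (-0.98 ± 0.10). The core copies fell by 0.43 (HHT2) to 1.02 (HHF1) and HTZ1 by 0.50. HHO1, at 175 and 173 CPM against 141 and 150 CPM, was higher by 0.26 ± 0.08, a call lost without wild-type replicate 1 (0.21) and turned to -0.15 by K. lactis scaling. Of 21 S phase and G1/S genes 12 were lower and 2 higher in rrp6 at that time, with a median of -0.26. All 7 markers of quiescent or stationary cells were higher, with a median of 2.53, and summed to 1468 to 1726 CPM in rrp6, against 344 to 451 CPM in wild type. Their part in the result was not tested.

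At 2 h after the shift the HTA2-HTB2 pair was higher in rrp6. HTA2 stood at 70.8 and 60.4 CPM, against 17.1 and 17.7 CPM (1.92 ± 0.16), and HTB2 at 67.6 and 67.5 CPM, against 17.8 and 17.1 CPM (1.95 ± 0.12, adjusted p = 6.6e-13). In all 2 were higher and 6 lower, against 32.1% and 31.0% of all mRNAs. HHO1 (-0.62 ± 0.09), HTA1 (-0.52 ± 0.08) and HHT2 (-0.40 ± 0.09) were lower. HTB1 (-0.29), HHF2 (-0.32) and HTZ1 (-0.31) lost their calls without wild-type replicate 2, at -0.20, -0.24 and -0.19, HTB1 and HHF2 also without rrp6 replicate 2, at -0.18 and -0.20, and HTZ1 without rrp6 replicate 1, at -0.17. K. lactis scaling turned HHT1 to -0.69 and no called member.

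At 24 h HTA2 was at 65.2 and 56.6 CPM in rrp6, against 46.0 and 50.4 CPM in wild type (0.34 ± 0.14, adjusted p = 0.04323), a call lost without 3 of the 4 libraries. HHO1, at 152 and 157 CPM against 83.6 and 88.1 CPM, was higher by 0.84 ± 0.09, and HHF1 was lower by 0.52 ± 0.10. In all 3 were higher and 4 lower, against 32.1% and 34.4%. Without rrp6 replicate 1 the counts were 3 higher and 2 lower, and without wild-type replicate 2 they were 1 higher and 2 lower. With K. lactis scaling all 10 were higher in rrp6, HTB1, HTB2, HHF1 and HHT1 turning to 1.09, 1.04, 0.89 and 0.77. Under that scaling 5603 of all mRNAs were higher and 189 lower. Of the 7 markers of quiescent or stationary cells 6 were lower, summing to 6682 to 8555 CPM in rrp6, against 39579 to 42951 CPM in wild type, and their part in the result was not tested.

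At 48 h HTA2 was at 91.8 and 56.5 CPM in rrp6, against 27.4 and 22.1 CPM in wild type (1.53 ± 0.19, adjusted p = 1.4e-06). It was the 1 member called higher, against 19.3% of all mRNAs, while 6 were lower, against 27.4%. HTB2, at 31.3 and 32.7 CPM, lay within the wild-type values of 38.8 and 26.3 CPM. HTB1 (-0.74 ± 0.11), HHF2 (-0.69 ± 0.12) and HTA1 (-0.67 ± 0.08) were lower, and HHF1 (-0.46) lost its call without wild-type replicate 1 (-0.28). With K. lactis scaling 7 were higher and none lower, against 4652 higher and 75 lower among all mRNAs. The 6 called lower turned positive: HTA1, HTB1, HHF1, HHF2, HHT2 and HHO1 read 0.11, 0.06, 0.33, 0.09, 0.32 and 0.30. One rrp6 library and one of the runs of a wild-type library came from batch 2. With batch 1 runs alone, which left 1 rrp6 library at 48 h, HHT1 read -0.50. The quiescent or stationary markers summed to 33711 to 37475 CPM in rrp6, against 62004 to 68199 CPM in wild type, with 4 of 7 lower, and their part was not tested here either.

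The change over time was tested between the strains. From before to 2 h after the shift the rrp6 deletion lost less HTA2 and HTB2 than wild type did, by 2.90 ± 0.19 and 2.89 ± 0.14 on the log2 scale, while HHO1 differed the other way (-0.88 ± 0.12). In this test 7 of 10 were higher and 1 lower, against 23.1% and 30.4% of all mRNAs. In rrp6 itself HTA2 fell by 1.34 ± 0.12 and HTB2 by 1.52 ± 0.09 over that interval, 8 of 10 were lower, against 39.2%, and HHO1 fell by 0.88 ± 0.09. From 2 to 24 h HTB2 fell by 0.55 ± 0.10 in rrp6, where it rose in wild type, and the difference was -2.32 ± 0.16. With K. lactis scaling that fall in rrp6 turned to 0.22 and the difference was -0.12 and not called. HHO1 rose by 0.71 ± 0.09 in rrp6 over those hours, a difference of 1.46 ± 0.13 from wild type. In this interval 4 of 10 were higher and 1 lower in rrp6, against 27.4% and 25.4%, and 4 differed in each direction, against 29.2% and 35.8%. From 24 to 48 h HHO1 rose by 0.67 ± 0.08 in rrp6, less than in wild type by 1.33 ± 0.12. There 4 of 10 were higher and 3 lower in rrp6, against 35.3% and 41.7%, and 1 differed upwards and 5 downwards, against 24.3% and 21.9%. K. lactis scaling turned all 4 of the rises in rrp6 between 24 and 48 h to falls, HHO1 reading -1.33 and HTA1 -1.80, and turned the differences of HTA2, HHF1 and HHT1 from 2 to 24 h to 0.61, 1.87 and 1.45. It also turned the HTA1 difference to 2 h after the shift to -0.02.

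**Figure D3:**
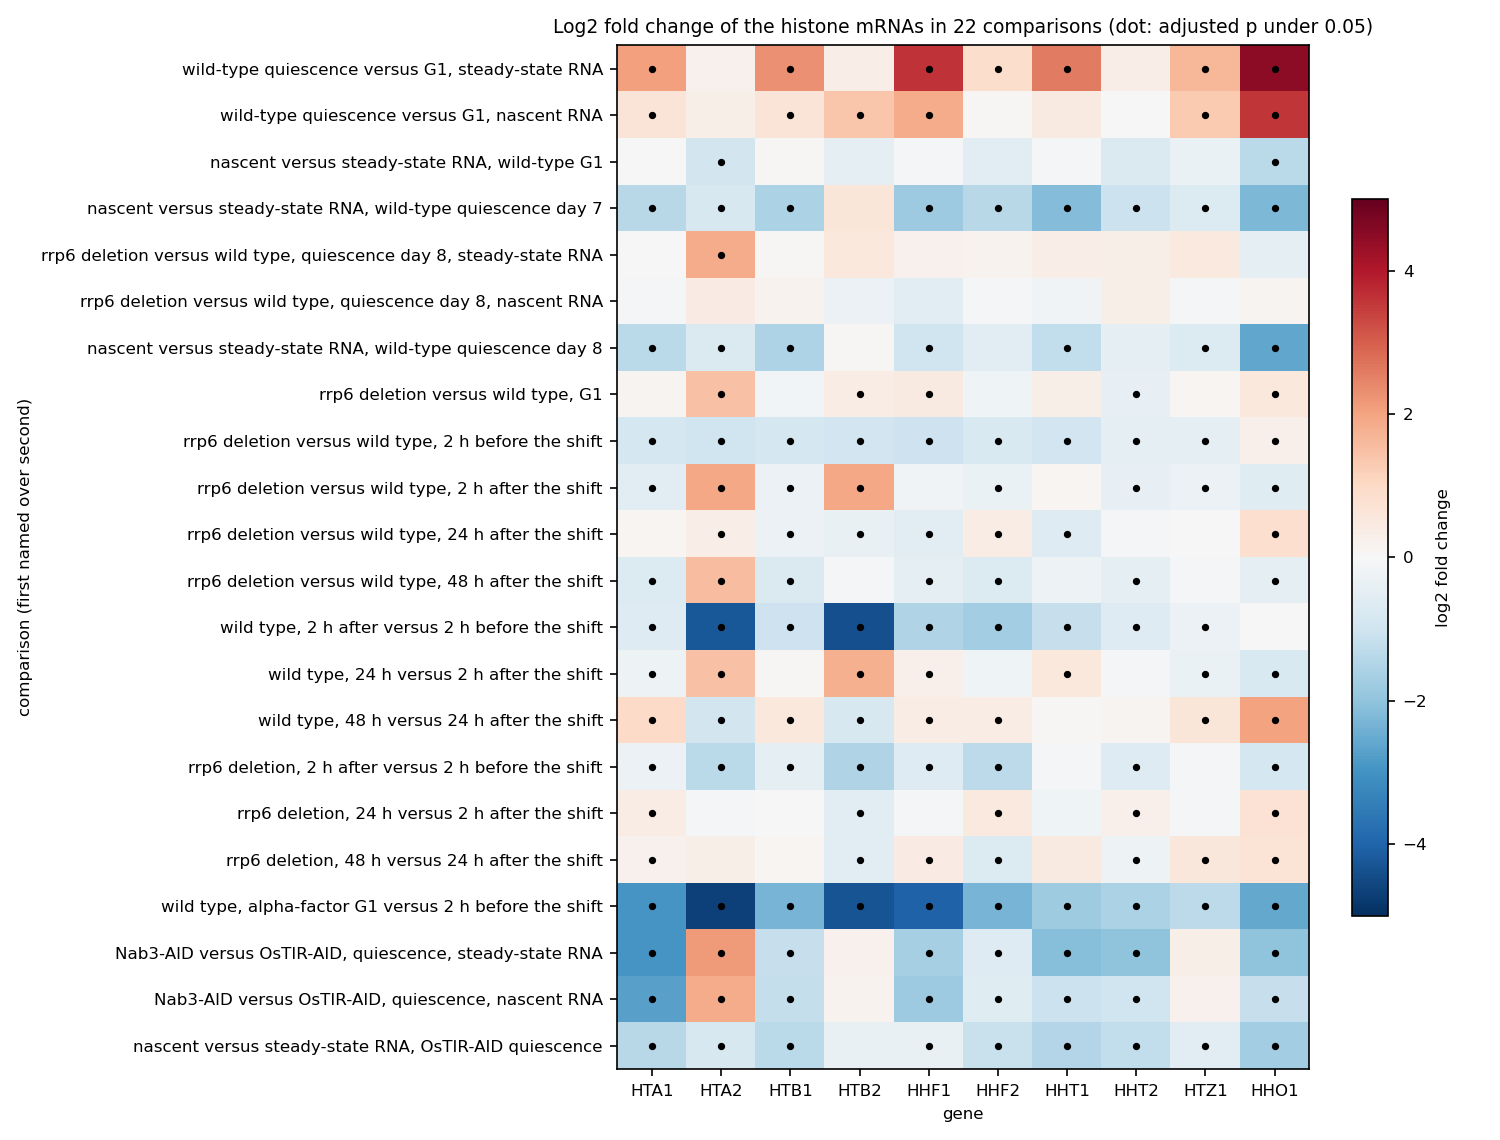
Log2 fold changes of the 10 histone mRNAs (columns) in 22 comparisons (rows, first named over second), red for higher and blue for lower, with a dot where the adjusted p was under 0.05. HTA2 is higher in the rrp6 deletion in the rows for G1, 2 h, 24 h, 48 h and quiescence, and in both Nab3-AID rows.

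Cells carrying Nab3-AID differed from the OsTIR-AID control in most histone mRNAs, and HTA2 was the 1 member called higher. In quiescent steady-state RNA 7 of 10 were lower and 1 higher, against 30.7% and 32.4% of 6135 mRNAs. HTA1 stood at 77.1 and 77.6 CPM in Nab3-AID, against 645 and 533 CPM in OsTIR-AID (-2.93 ± 0.13, adjusted p = 2.0e-11). HTA2 stood at 62.8 and 53.9 CPM, against 14.5 and 12.5 CPM (2.12 ± 0.25, adjusted p = 1.2e-06). HTA2 thereby gave 44.9% and 41.0% of the H2A reads in Nab3-AID, against 2.20% and 2.28% in OsTIR-AID.

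Of the remaining core copies 5 were lower as HTA1 was, and HTB2 was not called. HHT1, at 72.4 and 70.5 CPM against 323 and 305 CPM, was lower by 2.13 ± 0.15, and HHT2, at 68.2 and 69.3 CPM against 262 and 293 CPM, by 2.01 ± 0.12. HHF1 (-1.65 ± 0.12) and HTB1 (-1.15 ± 0.11) were lower, and HHF2 (-0.63 ± 0.18) lost its call without Nab3-AID replicate 1 (-0.50). HHO1, at 167 and 195 CPM against 706 and 735 CPM, was lower by 2.00 ± 0.10. HTB2, at 30.4 and 42.3 CPM against 29.0 and 32.8 CPM, and HTZ1, at 42.6 and 52.3 CPM against 34.6 and 43.0 CPM, were not called (0.21 ± 0.24 and 0.28 ± 0.21).

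Nascent RNA gave the same 8 calls in the same directions, against 33.9% lower and 36.0% higher among all mRNAs. HTA1 stood at 32.6 and 37.7 CPM in Nab3-AID, against 238 and 217 CPM in OsTIR-AID (-2.70 ± 0.12), and HTA2 at 28.5 and 27.8 CPM, against 8.41 and 6.97 CPM (1.85 ± 0.19). HHF1 was lower by 1.81 ± 0.11, HTB1 by 1.19 ± 0.10 and HHO1 by 1.15 ± 0.10. With K. lactis scaling steady-state RNA gave 4 higher and 1 lower, against 4941 and 70 of all mRNAs. Nascent RNA gave 3 higher and 1 lower, against 3692 and 113 of all mRNAs. Steady-state HTB1, HHF1 and HHF2 then read 0.54, 0.03 and 1.05, and nascent HHF2 and HHT2 0.49 and 0.09. HTA1 and HTA2 kept their signs. NAB3 mRNA read -0.52 in steady-state RNA, and the loss of the Nab3 protein was not measured here. All libraries of both strains were auxin-treated, so loss of Nab3 and other differences between the strains cannot be told apart. Markers of quiescent or stationary cells summed to 10998 to 14737 CPM in Nab3-AID, against 83722 to 91177 CPM in OsTIR-AID steady-state RNA, and their part in the result was not tested.

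SPT10, whose product activates the core histone genes, changed far more than the other regulators in this comparison. It stood at 2.98 and 3.73 CPM in Nab3-AID, against 64.8 and 46.4 CPM in OsTIR-AID steady-state RNA (-4.06 ± 0.29, adjusted p = 3.7e-09). In nascent RNA it stood at 6.72 and 5.87 CPM, against 132 and 125 CPM (-4.33 ± 0.17). The groups did not overlap in either kind of RNA. In steady-state RNA 8 of 12 histone gene regulators rose and 3 fell, against 32.4% and 30.7% of all mRNAs, with a median of 0.57, beside 0.10 for all mRNAs. There HIR2, a subunit of the repressing HIR complex, rose by 1.69 ± 0.15, and SPT21, which works with SPT10, by 1.15 ± 0.23. In nascent RNA 3 of the 12 rose and 3 fell, against 36.0% and 33.9% of all mRNAs. Their median was -0.02, beside 0.01 for all mRNAs. In all groups other than Nab3-AID the mean of SPT10 lay between 50.6 CPM (rrp6 at 24 h) and 140 CPM (wild-type quiescence of day 8, nascent). A difference at SPT10 between the strains and an effect of Nab3 loss cannot be told apart here. Whether the SPT10 difference and the histone differences are linked was not tested.

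Noncoding transcripts lie in the gaps between the paired genes, and the one in the HTA2-HTB2 gap was higher in every comparison of rrp6 with wild type and of Nab3-AID with OsTIR-AID. The transcript catalogued as CUT1770 and SUT442 (chrII:235856-236217) runs on the minus strand, the strand of HTA2, and lies upstream of the HTA2 coding start. In quiescent steady-state RNA of day 8 it had 116 and 192 reads in rrp6, against 3 and 1 in wild type (4.82 ± 0.50, adjusted p = 3.6e-06), and 33.3% of 3931 noncoding transcripts were higher. In nascent RNA it had 116 and 120 reads, against 51 and 28 (1.58 ± 0.29), where 16.3% were higher. The change was smaller in nascent RNA by 3.23 ± 0.66 (adjusted p = 0.00457), as for 13.2% of noncoding transcripts.

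In Nab3-AID the same transcript had 88 and 49 reads, against 1 and 1 in OsTIR-AID steady-state RNA (4.35 ± 0.73), where 61.5% of noncoding transcripts were higher. In nascent RNA it had 142 and 118 reads, against 22 and 2 (2.50 ± 0.36), where 73.9% were higher. In this set the transcript passed the filter on low counts only through the Nab3-AID libraries, where it was higher. In the rrp6 deletion it was higher by 4.76 in G1 and by 4.11, 5.91, 5.24 and 3.33 at 2 h before and 2, 24 and 48 h after the shift, where 69.1%, 72.9%, 68.0%, 58.7% and 41.1% of noncoding transcripts were higher. At 2 h before the shift the transcript was thus higher while HTA2 mRNA was lower. Transcripts assembled by the authors from quiescent nascent reads include one over HTA2 from chrII:235321-236011, which overlaps this catalogued transcript, and the G1 assembly holds none over HTA2 or HHO1. Whether HTA2 and the upstream transcript form one RNA was not tested.

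**Figure D4:**
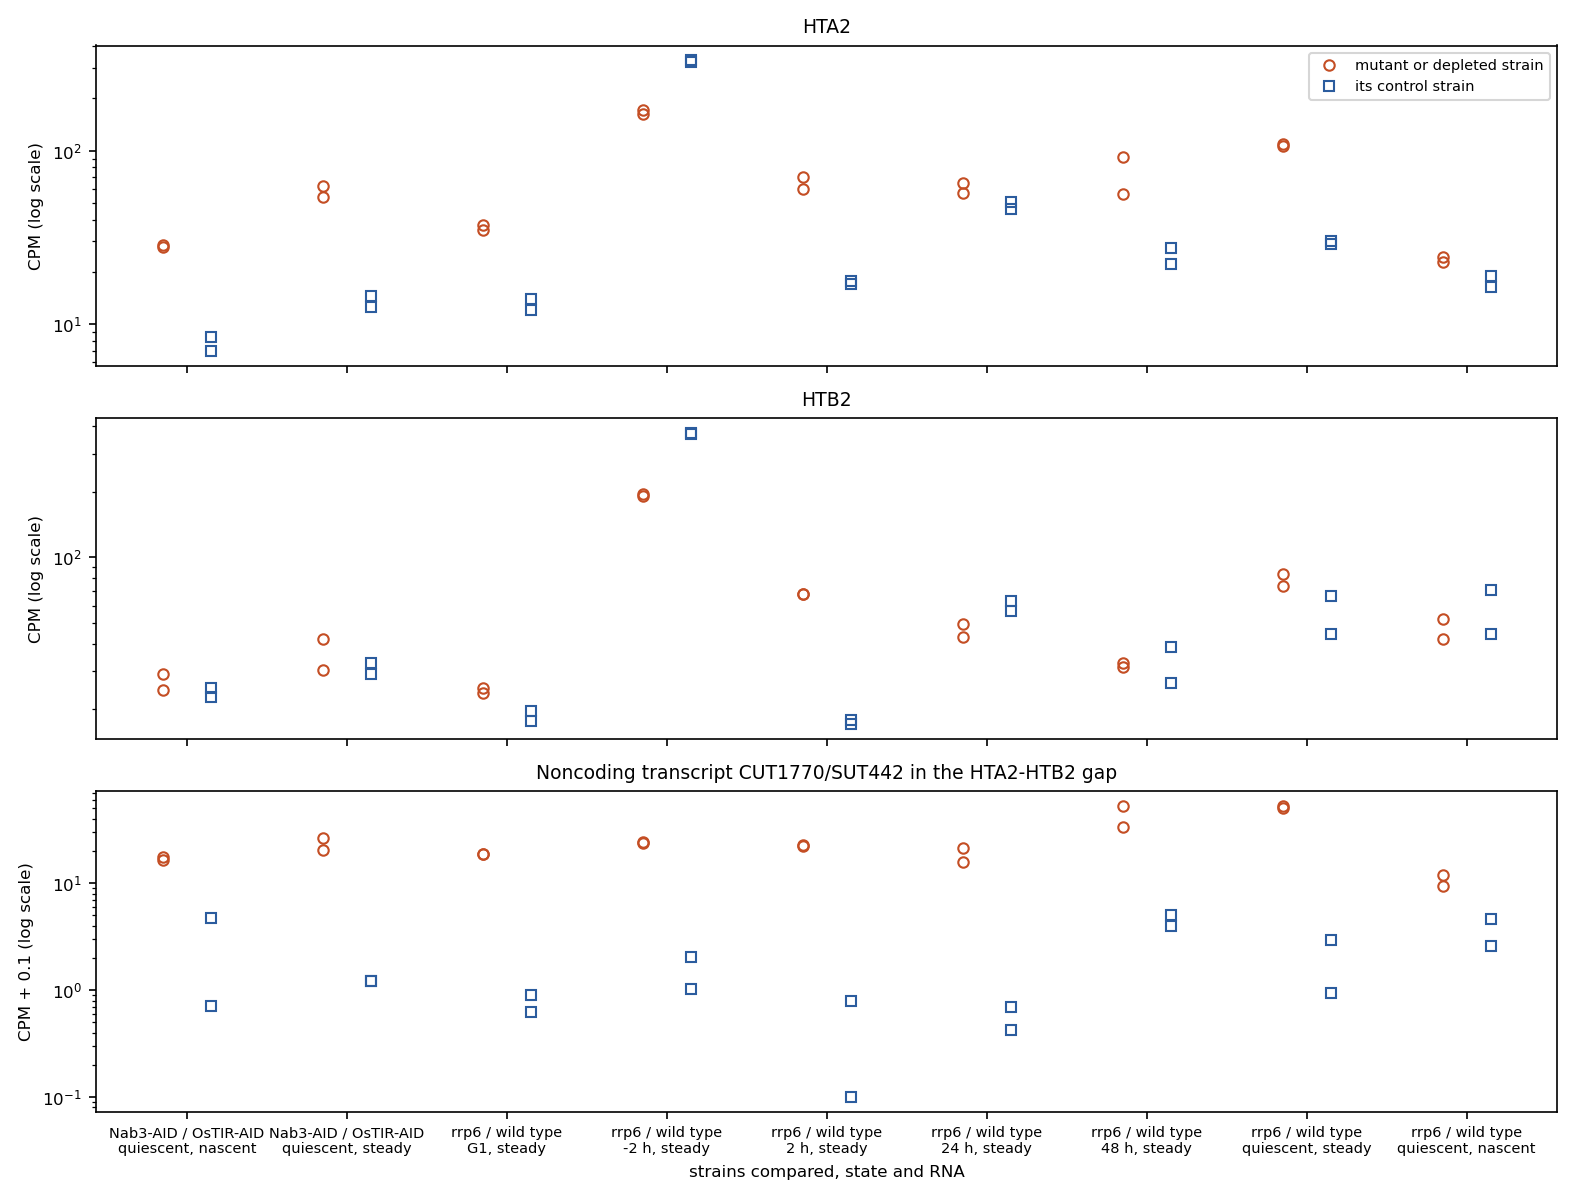
Levels of HTA2 (top), HTB2 (middle) and the noncoding transcript between them (bottom) in CPM, or CPM plus 0.1, on log axes, for Nab3-AID or the rrp6 deletion (circles) and for OsTIR-AID or wild type (squares), 2 libraries each. The noncoding transcript is above its control in every pair of groups, and HTA2 is above its control in every pair but that of 2 h before the shift.

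Reads antisense to the histone genes were few for most members. Antisense to HTB2, on the strand of the gap transcript, Nab3-AID nascent libraries had 146 and 126 reads, against 3 and 2 in OsTIR-AID, and steady-state libraries 24 and 21, against 0 and 0; these were not tested. In quiescent steady-state RNA of day 8, antisense reads to HTA2 numbered 7 and 10 in rrp6, against 0 and 0 in wild type, where 3 reads are the most that a count of 0 allows in a library. HTZ1 had 48 and 73 antisense reads, against 11 and 11 (1.03 ± 0.35), and HHO1 37 and 43, against 7 and 6 (1.22 ± 0.45). All members but HHF2 were tested, and these 3 were called higher, against 27.6% of all mRNAs with antisense reads. HTA2 passed the filter on low counts through the rrp6 steady-state libraries alone, the group where it was higher. Leaving out any 1 library ended the HTA2 and HTZ1 calls. HHO1 lost its call without 3 of the 4 libraries (adjusted p = 0.106 to 0.225). The transcript SUT358, antisense over HTZ1, was higher at 2 h after than 2 h before the shift in wild type by 1.78 ± 0.17, as were 29.2% of noncoding transcripts. NUT0776 and CUT100, antisense over HHO1, were higher in Nab3-AID by 2.66 ± 0.37 in steady-state and 2.20 ± 0.21 in nascent RNA, where HHO1 mRNA was lower. Of noncoding transcripts 61.5% and 73.9% were higher there. In the HTA1-HTB1 gap CUT701 and CUT073 (chrIV:915035-915433), on the strand of HTA1, were higher in rrp6 quiescent steady-state RNA by 2.46 ± 0.51 and in nascent RNA by 2.16 ± 0.36. HTA1 mRNA read -0.02 and -0.06 there, and 33.3% and 16.3% of noncoding transcripts were higher. In Nab3-AID nascent RNA XUT-4R-374, in the same gap, had 52 and 26 reads, against 2 and 0 in OsTIR-AID (4.16 ± 0.70). It passed the filter on low counts through the Nab3-AID libraries alone, and 73.9% of noncoding transcripts were higher in that comparison.

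The core copies as a sum were compared with HTZ1 and with HHO1 in each library, as log2 of the ratio of CPM per kb. These ratios do not depend on the scaling. Relative to HHO1 the core sum was 3.75 ± 0.08 in quiescent steady-state RNA of day 7, against 6.39 ± 0.17 in G1 (SD, n = 2 each), and in nascent RNA 4.42 ± 0.30, against 7.43 ± 0.07. Relative to HTZ1 it was 5.30 ± 0.11, against 5.16 ± 0.01, and in nascent RNA 4.43 ± 0.21, against 5.20 ± 0.09. The core copies thus lost ground to HHO1 by 2.64 and 3.01 log2 units, while relative to HTZ1 the differences were 0.14 in steady-state and -0.77 in nascent RNA. Averaging the log2 levels of the core copies in place of summing them turned the steady-state difference to -0.15.

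Around the shift in wild type the core sum relative to HHO1 was 6.03 ± 0.05 at 2 h before and 4.73 ± 0.11, 5.58 ± 0.01 and 3.92 ± 0.01 at 2, 24 and 48 h after. Relative to HTZ1 it was 6.60 ± 0.03, 5.59 ± 0.06, 6.02 ± 0.13 and 5.78 ± 0.03 at those times. In Nab3-AID steady-state RNA the core sum relative to HTZ1 was 4.05 ± 0.21, against 5.93 ± 0.33 in OsTIR-AID, and relative to HHO1 3.06 ± 0.16, against 2.64 ± 0.14. In nascent RNA it was 3.84 ± 0.02, against 5.41 ± 0.01, relative to HTZ1, and 3.09 ± 0.00, against 3.29 ± 0.06, relative to HHO1, a difference of -0.21 that averaging turned to 0.36. In rrp6 quiescent steady-state RNA it was 3.71 ± 0.09 relative to HHO1, against 3.03 ± 0.16 in wild type, and 5.69 ± 0.09 relative to HTZ1, against 5.96 ± 0.14. Of the 9 comparisons taken for these ratios groups did not overlap in 8 for either ratio, the exception being rrp6 nascent RNA. Those of rrp6 with wild type in G1 and around the shift were not among the 9. Some of them overlapped and others did not. In G1 the ratio to HTZ1 was 5.18 and 5.38 in rrp6, against 5.53 and 5.27 in wild type. The exact permutation test of 2 against 2 cannot go below p = 0.333 (two-sided), so these ratios are given as values with their spread.

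**Figure D5:**
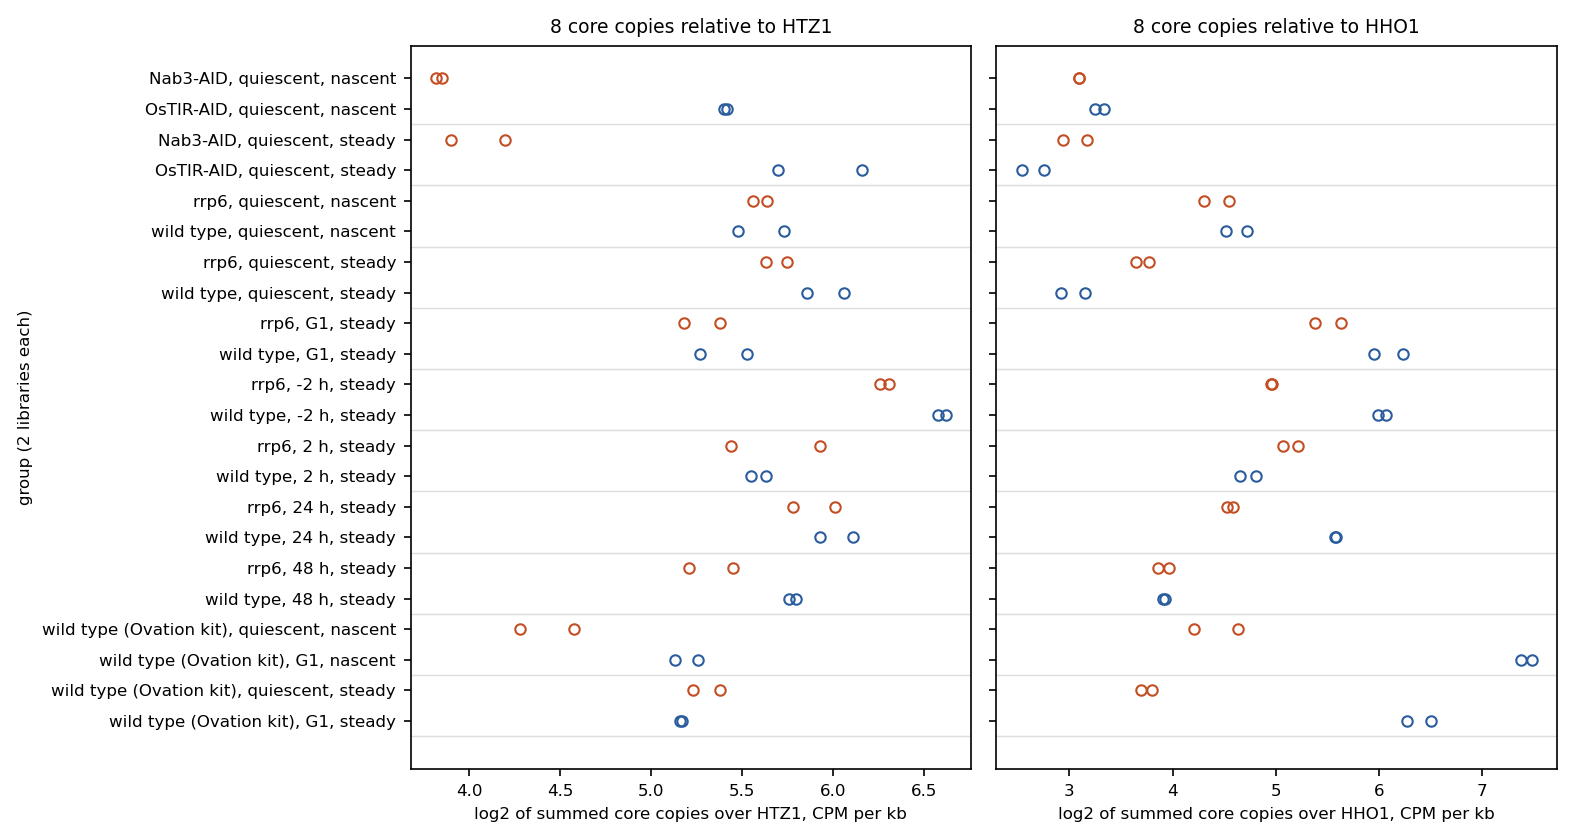
Log2 ratio of the 8 summed core copies to HTZ1 (left) and to HHO1 (right), in CPM per kb, with a point for each of the 2 libraries in the 22 groups; grey lines separate pairs, and orange marks the upper and blue the lower group of a pair. The ratio to HHO1 is about 3 log2 units lower in Ovation-kit quiescence than in G1 nascent RNA (4.42 against 7.43), and the ratio to HTZ1 is lowest in Nab3-AID.

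Genes that act on histones were read beside the members. Of 21 S phase and G1/S genes all 21 were lower at 2 h after than 2 h before the shift in wild type. Their median was -0.94, beside 0.06 for all mRNAs, of which 36.9% were lower. In G1, set against before the shift, 20 were lower, with a median of -1.06, against 26.8% of all mRNAs. The all-mRNA median shifted under K. lactis scaling by -0.95 and -0.10 in these comparisons and by -0.39 in the next. In quiescence against G1, steady-state RNA, 7 of the 21 were higher and 8 lower, against 36.7% and 38.0% of all mRNAs. Of 12 histone gene regulators 5 were higher and 3 lower. YTA7, which binds histone genes, and RTT106, a histone chaperone, rose there by 1.86 ± 0.19 and 1.77 ± 0.19. Of 14 genes of the SWR1 complex and H2A.Z chaperones 9 were higher and 3 lower, led by VPS72 (2.35 ± 0.16), a subunit that binds H2A.Z. In nascent RNA 2 of these 14 were higher and 3 lower, and 1 regulator was higher and 1 lower, against 29.0% and 33.1% of all mRNAs. Among 12 genes of histone chaperones and deposition 3 rose and 4 fell in steady-state RNA.

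ASF1, a histone chaperone, moved in the directions of HTA2 and HTB2 around the shift in wild type. There it stood at 76.5 and 78.0 CPM at 2 h before, and at 35.5 and 28.8, 114 and 114, and 36.2 and 37.7 CPM at 2, 24 and 48 h after the shift. In rrp6 it rose by 0.64 ± 0.10 between 2 h before and 2 h after the shift, where HTA2 and HTB2 fell. Set against wild type, ASF1 was higher in rrp6 by 1.55 ± 0.11 at 2 h after the shift and lower by 1.21 ± 0.11 at 24 h. In rrp6 quiescent steady-state RNA HIR2 stood at 257 and 280 CPM, against 52.0 and 48.4 CPM in wild type (2.42 ± 0.17), and in nascent RNA its change was smaller by 2.26 ± 0.23 (adjusted p = 0.02335). Of 12 regulators 2 were higher and 2 lower in that steady-state RNA, against 4.76% and 7.18% of all mRNAs. HIR3 (0.62), HIR1 (-0.72) and YTA7 (-0.65) were the other 3. Of the 14 SWR1 and H2A.Z chaperone genes ARP4 alone was called there (0.62).

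The mRNAs with patterns most like the members were taken from 5473 mRNAs over the 18 groups of the Universal Plus kit, by Pearson correlation of group means of log2 CPM. For the mean of the 8 core copies they were PCL9 (0.828), a cyclin, ADE8 (0.810), VTC2 (0.809), NUD1 (0.805) and YCR024C-B (0.783). For HTZ1 they were THO1 (0.773), DSE3 (0.764), HEK2 (0.742), COA3 (0.727) and NCE101 (0.698). For HHO1 they were SSU1 (0.910), SRS2 (0.906), a DNA helicase, MRN1 (0.894), SIC1 (0.881), an inhibitor of cyclin-dependent kinase, and MRPL28 (0.879). HHO1 itself correlated with HTA2 at 0.07, with HHF2 at 0.09 and with HTA1 at 0.74.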

How the data were processed

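The authors deposited read counts per feature, strand by strand, for mRNAs and for noncoding transcripts of S. cerevisiae together with K. lactis mRNAs. STAR, UMI-tools, SAMtools and HTSeq are named in the submitters' processing notes, as is the R64 (sacCer3) build; their versions, and the way K. lactis was added, are not given in the sources used here. The mRNA table has 46 sample columns for the 44 samples, and the 2 runs of each of 2 samples were summed. Reads aligned to several places (7.99% to 62.5% of a library's aligned reads) were left out by the authors' counting.

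Counts were fitted in R 4.3.3 with edgeR 4.0.16 (filterByExpr, TMM, glmQLFit and glmQLFTest, Benjamini-Hochberg over all mRNAs, threshold 0.05), separately in the set with Nab3-AID and OsTIR-AID, the day 8 quiescent set, the diauxic shift and G1 set and the Ovation set. Levels used Python 3.11.15 with numpy 2.4.6, pandas 2.3.3 and scipy 1.17.1, and figures matplotlib 3.10.9. Alternatives were DESeq2 1.42.0, its size factors in edgeR, K. lactis scaling, no filter on low counts, a replicate block and each library left out. Batch subsets and the alternatives for noncoding transcripts were added after seeing the data. The fits were tested on simulated data for 4 comparisons. Of genes given a change of 1 on the log2 scale, 48% were called in quiescent steady-state rrp6 against wild type. The share was 65% in nascent quiescence against G1, 90% in rrp6 at 2 h before the shift and 95% in nascent Nab3-AID. A histone mRNA not called in quiescent rrp6 may thus have changed by that much.

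The members, gene lists and tests were chosen with earlier results of these data known. All 10 members are named; of other genes the text names up to 4 per list with the largest called changes, the 5 most alike to each of 3 profiles, and the noncoding transcripts at the histone loci, to which SPT10, HIR2, ASF1 and NAB3 were added with their values seen. Same-numbered replicates share a strain within wild type, within rrp6 and between nascent and steady-state libraries; their deviations correlated at -0.12 to 0.58, against -0.17 to 0.67 where the strains differ.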

Additional observations from a re-analysis of the deposited data

Results flagged for a closer look

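Several histone mRNAs had effects that differed between kinds of RNA or between strains by the interaction test (edgeR, adjusted over all features). The gain in quiescence over G1 was smaller in nascent than in steady-state RNA for HHT1 (-2.13), HHF1 (-1.77), HTB1 (-1.63) and HTA1 (-1.42).

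The change from 2 h before to 2 h after the diauxic shift, rrp6 deletion minus wild type, differed for HTA2 (2.90), HTB2 (2.89), HHT1 (1.06), HHF1 (0.83), HTB1 (0.57), HHF2 (0.45), HTA1 (0.35) and HHO1 (-0.88). Of all mRNAs 23.1% were higher and 30.4% lower in that test. HTA1 lost its call without rrp6 replicate 1 or wild-type replicate 1 of 2 h after the shift (0.28 in each fit), and HHF2 without that rrp6 library (0.30). Under K. lactis scaling HTA1 turned to -0.02, and HTB1 (0.19) and HHF2 (0.07) were not called.

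From 2 to 24 h the difference was -2.32 for HTB2, -1.59 for HTA2, -0.74 for HHT1, -0.33 for HHF1, 0.36 for HHT2, 0.60 for HTA1, 0.69 for HHF2 and 1.46 for HHO1. Of all mRNAs 29.2% were higher and 35.8% lower in that test. HHF1 and HHT1 lost their calls without any one of rrp6 24 h replicate 1 (-0.23 and -0.60) or 2 (-0.29 and -0.75), rrp6 2 h replicate 1 (-0.23 and -0.63), wild-type 24 h replicate 2 (-0.26 and -0.61) or wild-type 2 h replicate 1 (-0.25 and -0.60). HHT2 lost it without replicate 2 of 2 h of rrp6 (0.24) or of wild type (0.29). Under K. lactis scaling HTA2, HHT1 and HHF1 turned to 0.61, 1.45 and 1.87, and HTB2 (-0.12) was not called.

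From 24 to 48 h the difference was -1.33 for HHO1, -1.06 for HHF2, -0.76 for HTA1, -0.42 for HTB1, -0.42 for HHT2 and 1.20 for HTA2. Of all mRNAs 24.3% were higher and 21.9% lower in that test. HTB1 lost its call without rrp6 24 h replicate 2 (-0.35), rrp6 48 h replicate 2 (-0.34), wild-type 24 h replicate 1 (-0.30) or wild-type 48 h replicate 1 (-0.25), and HHT2 without the last of these (-0.33).

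Among noncoding transcripts, CUT1770 and SUT442 changed less in nascent than in steady-state RNA of the quiescent rrp6 deletion (-3.23), a call that held in 7 of 8 fits with a library left out. SUT358 fell in rrp6 relative to wild type from 2 to 24 h (-0.70), a call that held in 5 of 8 such fits, and K. lactis scaling turned it to 1.5.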

How the results depend on the processing

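Scaling to K. lactis reads kept the direction and call of 166 results for single genes and 15 counts. It turned 72 single-gene results, and the cause was not tested. In many comparisons it called most of all mRNAs changed in one direction, so its counts of histone mRNAs are not particular to them. In Nab3-AID it left 5 steady-state calls (HTB1 0.54, HHF1 0.03, HHF2 1.05) and 4 nascent (HHF2 0.49, HHT2 0.09). In rrp6 against wild type HHO1 read -0.15 at 2 h before the shift and HHT1 -0.69 at 2 h after. At 24 h 10 were called (HTB1 1.09, HTB2 1.04, HHF1 0.89, HHT1 0.77, HHT2 1.37, HTZ1 1.38), and at 48 h 7 (HTA1 0.11, HTB1 0.06, HTB2 0.72, HHF1 0.33, HHF2 0.09, HHT1 0.56, HHT2 0.32, HTZ1 0.75, HHO1 0.30). In wild type 9 were called at 24 h against 2 h (HTB1 -1.39, HHF1 -1.16, HHT1 -0.91) and 10 at 48 h against 24 h (HTA1 -0.42, HTB1 -0.88, HHF1 -1.02, HHF2 -1.01, HHT1 -1.35, HHT2 -1.22, HTZ1 -0.79). In rrp6 the counts were 9 (HTA2 0.66, HTB2 0.22, HHF1 0.71, HHT1 0.54, HTZ1 0.69) and 10 (HTA1 -1.80, HTA2 -1.72, HTB1 -1.91, HHF1 -1.59, HHT1 -1.55, HTZ1 -1.42, HHO1 -1.33). Between the strains 5 changes to 2 h were called (HTA1 -0.02), those from 2 to 24 h turned for HTA2 (0.61), HTB1 (2.17), HHF1 (1.87) and HHT1 (1.45), and that from 24 to 48 h for HHF1 (-0.56). In nascent quiescence against G1 9 were called (HTA1 -3.75, HTA2 -4.15, HTB1 -3.87, HTB2 -3.16, HHF1 -2.57, HHF2 -4.35, HHT1 -4.02, HTZ1 -3.18, HHO1 -0.93), with 3 antisense calls (HHT2 -3.59, HTZ1 -3.80), and 10 in its difference from steady-state RNA (HTA2 -4.02, HTB2 -3.23). Nascent against steady-state RNA gave 7 in G1 (HTA2 1.19, HTB2 1.62, HHF1 1.96, HHF2 1.51, HHT1 1.96, HTZ1 1.71, HHO1 0.66) and HTB2 -1.61 at day 7. In quiescent rrp6 9 were called in steady-state RNA (HTA1 1.12), with 5 antisense, and 6 in the difference of nascent from steady-state RNA.

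DESeq2 gave 0 antisense calls in nascent quiescence against G1 and 1 in quiescent rrp6 steady-state RNA, and no filter gave 2 in nascent quiescence against G1. Averaging log2 levels in place of summing moved the core share relative to HTZ1 and to HHO1 to -0.15 and -2.93 (quiescence against G1, steady-state), -0.06 and 0.89 (rrp6, steady-state), -1.63 and -1.92, 0.78 and 1.20, and -0.52 and -1.93 (wild type at 2, 24 and 48 h against the time before), and -1.31 and 0.98, and -1.01 and 0.36 (Nab3-AID, steady-state and nascent). The replicate block changed no count of calls by over 1.5 times and added HTB2 (1.06), HHO1 (-0.86) and HHF2 (-0.58), given above. With the batch 1 runs alone, which left 1 rrp6 library at 48 h, HHT1 read -0.50.

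Leaving out 1 library at a time gave 7 to 8 (steady-state) and 8 (nascent) calls in Nab3-AID. In rrp6 against wild type it gave 9 to 10 at 2 h before the shift, 5 to 8, 3 to 6 and 6 to 8 at 2, 24 and 48 h after, 4 to 5 in G1, and in quiescence 1 steady-state and 0 nascent. Wild-type steps gave 8 to 9, 4 to 5 and 5 to 8, rrp6 steps 8, 4 to 5 and 6 to 8, their differences 6 to 8, 6 to 8 and 5 to 6, and G1 against before the shift 10. Quiescence against G1 gave 6 to 7 steady-state, 4 to 5 nascent and 4 to 6 for their difference. Nascent against steady-state RNA gave 0 to 1 in G1, 7 to 9 at day 7, 4 to 9 at day 8 and 6 to 7 in OsTIR-AID. Antisense calls were 0 to 2 in nascent quiescence against G1 and 0 to 1 in quiescent rrp6 steady-state RNA. Depth limits the noncoding and antisense values most, where several libraries had few reads or none.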
